A study of Mus musculus with 12 samples.

Results

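The type I interferon genes described here are 42 genes chosen by name and known function: interferon beta, both chains of its receptor and 39 genes that interferon is known to induce. They were chosen with earlier results of these data known, so counts of them describe this list and are no independent test. A row with each symbol was sought in the expression tables of mouse bone marrow-derived macrophages (BMDMs), and all 42 were found, 1 row each, among 23847 rows. All 42 also passed the filter on low values, which kept the 11191 rows with at least 1 FPKM in at least 1 library. FPKM is a fragment count scaled to transcript length and to the mapped fragments of the library, so levels can be set side by side between genes. Bone marrow cells of wild-type mice aged 8 to 12 weeks were grown into macrophages for 6 days with L929 supernatant, a source of the growth factor MCSF. The 4 groups, of 3 libraries each, were an untreated control, IL-4 (20 ng/ml for 24 h), LPS (100 ng/ml for 3 h), and IL-4+LPS, in which the IL-4 treatment came first and LPS was then added. Poly-A RNA was sequenced in 12 libraries. The study describes its RNA-seq replicates as individual animals spread over independent experiments. The labels number the replicates without saying which animal or experiment a number stands for.

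Type I interferons are cytokines of the antiviral response. LPS engages Tlr4, which through the adaptor TRIF, the kinases TBK1 and IKKε and the factor IRF3 turns on the interferon beta gene in macrophages. Secreted interferon beta binds its receptor, IFNAR1 with IFNAR2, on the same or neighbouring cells, and JAK1 and TYK2 then carry the signal towards the nucleus. There a complex that contains STAT2 and IRF9 binds the interferon-stimulated response element (ISRE) in the promoters of many genes, whose products sense viral nucleic acid, degrade viral RNA, block translation or restrict particle release. IL-4 acts through STAT6 and drives alternative polarization. The comparisons therefore ask how far LPS raised these genes, how IL-4 alone set their level, and how IL-4 pretreatment changed their level and response under LPS.

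The promoter sequences of 8 members are shown because they carry the ISRE core letters, and that of Ifnb1 because it carries the NF-kB consensus. Sequences come from the RefSeq promoter table (build GRCm38.p6), which held entries for 31 of the 42 members, and only the 250 bases before the transcription start were searched, on both strands. Rtp4, Parp9, Usp18, Mx1, Oas2, Dhx58, Parp14, Zbp1, Ifi204, Tor3a and Mx2 had no entry. Each window runs from 20 bases before the first match to 20 bases after the last, stopping at the start, and is written 5′ to 3′ on the strand of the gene, with the match in capitals. The windows lie upstream of the RefSeq transcription start of each gene. Capitals mark GAAANNGAAA or its reverse complement in all but Ifnb1, where they mark the NF-kB consensus.
Isg15: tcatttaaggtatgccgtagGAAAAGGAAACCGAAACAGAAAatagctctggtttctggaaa
Ifit1: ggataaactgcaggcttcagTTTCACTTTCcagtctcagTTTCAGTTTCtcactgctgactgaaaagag
Ifit3: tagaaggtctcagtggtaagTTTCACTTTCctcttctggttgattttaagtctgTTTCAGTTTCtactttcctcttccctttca
Rsad2: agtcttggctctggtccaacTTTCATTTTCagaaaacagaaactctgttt
Oas1a: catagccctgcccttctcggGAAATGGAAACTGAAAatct
Oas3: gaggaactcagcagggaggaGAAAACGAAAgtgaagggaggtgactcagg
Bst2: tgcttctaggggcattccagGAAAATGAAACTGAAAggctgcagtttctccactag
Slfn5: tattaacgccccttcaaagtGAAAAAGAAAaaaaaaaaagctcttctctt
Ifnb1: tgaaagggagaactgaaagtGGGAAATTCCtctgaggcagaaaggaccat

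The windows are at chr4:156200855-156200916 on the minus strand for Isg15, chr19:34640765-34640833 on the plus strand for Ifit1, chr19:34583353-34583436 on the plus strand for Ifit3 and chr12:26456543-26456592 on the minus strand for Rsad2. Those of the OAS genes are at chr5:120907526-120907565 for Oas1a and chr5:120777705-120777754 for Oas3, both on the minus strand. The others are at chr8:71537567-71537622 (minus) for Bst2, chr11:82951927-82951976 (plus) for Slfn5 and chr4:88522881-88522930 (minus) for Ifnb1. Isg15 held 3 overlapping copies of the core, Oas1a and Bst2 2 overlapping copies each, and Ifit1 and Ifit3 2 separate copies each. Across members the ISRE core was present in 8 of 31, or 25.8%, against 3.43% of the 8183 genes of the fit with an entry and 2.98% of all 32841 promoters. The NF-kB consensus was present in 7 members (Ifnb1, Ifit2, Oas3, Oasl1, Bst2, Isg20 and Slfn1), or 22.6%, against 10.6% of the genes of the fit. The spacing bound by STAT6, TTCNNNNGAA, was present in Ifit2, Oas1a and Isg20, against 5.72% of the genes of the fit, and in Oas1a it overlapped the ISRE core. A match is a description of letters in a window and not a measured binding site.

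Many members lie in clusters of related genes on mm10. Ifit2, Ifit3 and Ifit1 span 99 kb of chromosome 19 (34550694 to 34650009), Oas2, Oas3 and Oas1a 177 kb of chromosome 5 (120730333 to 120907525), and Oasl2 and Oasl1 41 kb of the same chromosome (114896934 to 114937911). The 4 Schlafen genes span 238 kb of chromosome 11 (82952102 to 83190216), and Rsad2 and Cmpk2 are neighbours on chromosome 12 (26442743 to 26479837). Chromosome 16 holds Parp14, Dtx3l and Parp9 (35832878 to 35972621), Ifnar2 and Ifnar1 (91372783 to 91510522) and Mx1 and Mx2 (97447035 to 97560901). GENCODE vM21 gives 41 of the members as protein coding and Mx2 as a polymorphic pseudogene. Parp9 and Dtx3l overlap by 558 bases on opposite strands, and the sources used here do not state strand, so reads of that stretch cannot be told apart. Some members share sequence with close relatives, and their values are uncertain to that extent. Of the 50-base words in the longest transcript, 57.6% were shared with other genes for Oas1a (chiefly Oas1g), 51.2% for Ifit3 (chiefly Ifit3b), 30.2% for Ifi204 (chiefly Ifi211) and 23.8% for Herc6 (chiefly Gm45193).

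The libraries carried the marks of macrophages and of both treatments. All 8 macrophage markers measured were at 1 FPKM or more, and their sum ran from 6850 to 20800 FPKM. Summed markers reached at most 3.51 FPKM for T cells, 4.36 for B cells, 0.275 for NK cells, 4.14 for dendritic cells, 0.23 for fibroblasts, 1.91 for mast cells and basophils, and 0.461 for red cell precursors. Tpsb2, of mast cells, was listed at 0 throughout. The 7 neutrophil and precursor markers measured were all above 1 FPKM in some library and summed to 214 to 1020 FPKM, lowest in replicate 1 of each group. The 4 IL-4 response genes measured summed to 138 to 228 FPKM without IL-4 and to 10300 to 14200 FPKM with it. The 4 LPS response genes summed to 28.3 to 72.9 FPKM without LPS and to 2490 to 6060 FPKM with it. Relative depth, read from the steps between low values with control replicate 1 set to 1, was 0.99 to 1.03 in the 4 libraries numbered 1 and 1.27 to 3.31 in the other 8. In bulk RNA, fewer cells of a type and less RNA per cell cannot be told apart.

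LPS raised every member. In LPS minus control, 42 of 42 were called higher and 0 lower, where 16.9% of all rows tested were called higher and 57.7% lower (limma, Benjamini-Hochberg adjusted p under 0.05 over all rows). The median difference of the members was 2.81 on the log2(FPKM + 1) scale, against -0.44 for all rows, and it ran from 0.47 for Ifnar2 to 7.12 for Rsad2. The 3 LPS libraries lay above the 3 control libraries in all 42, which 17.9% of all rows did. Both counts include Ifnb1 and Ifi44, which were under 1 FPKM in every control and IL-4 library. These genes passed the filter only through libraries with LPS, so a higher level with LPS was built into passing. Median scaling moved the median of all rows to -0.14 and the split of all rows from 1887 higher and 6462 lower to 2966 higher and 4454 lower. All 42 members stayed called higher under median scaling and under quantile normalization. On this scale the change of genes under a few FPKM is understated.

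**Figure D1:**
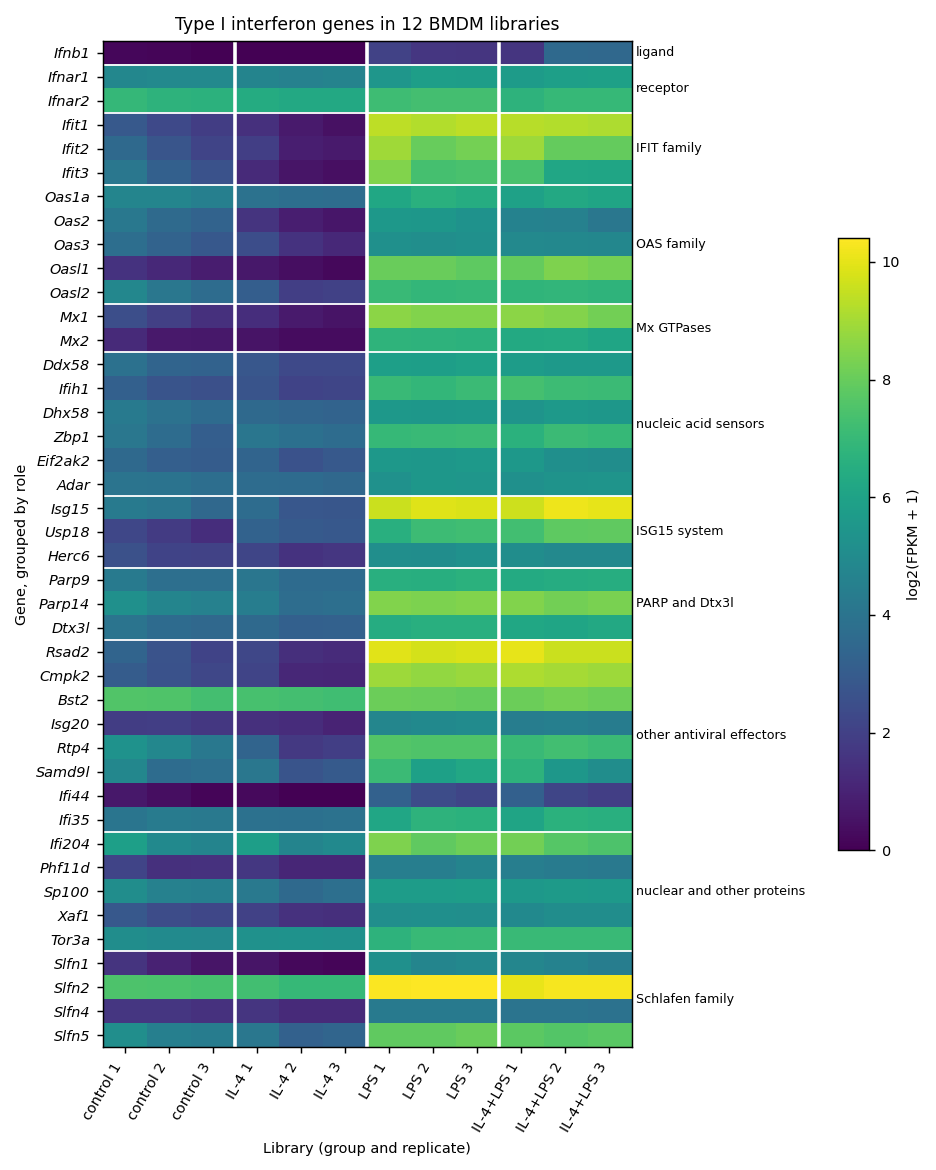
Heat map of log2(FPKM + 1) for the 42 genes (rows, grouped by role) in the 12 libraries (columns, 3 per group). Levels rise in every LPS and IL-4+LPS library, and the darkest cells of most rows are those of IL-4 replicates 2 and 3.

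Ifnb1 encodes the ligand. Its level was 0.147, 0.11 and 0 FPKM in control replicates 1 to 3, was listed at 0 in all 3 IL-4 libraries, and reached 3.13, 2.14 and 2.05 FPKM in LPS. In IL-4+LPS it was 2.07, 10.7 and 10.6 FPKM. Each LPS library was above each control library, and the replicates of IL-4+LPS fell apart, with replicate 1 within the range of LPS and the other pair far above it. If the control replicate 1 value stands for 1 fragment, the LPS values stand for about 22, 38 and 19.9 fragments and those of IL-4+LPS for about 14, 92.1 and 142.5. The difference of LPS minus control was 1.65 (SE 0.41, adjusted p = 0.00397), a value that depends on the pseudocount because the control values stand for at most 1 fragment. Of 18 other interferon genes found in the tables, 15 were listed at 0 in all 12 libraries, every Ifna gene among them. The other 3, Ifng, Ifnk and Ifnz, reached at most 0.167, 0.131 and 0.0372 FPKM.

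The receptor chains were present before any treatment and had small responses. Ifnar1 was 27.4, 28.9 and 29.2 FPKM in control, 24.8, 23.1 and 24.3 with IL-4, 43.3, 56.3 and 54.2 with LPS, and 51.6, 57.4 and 59.8 in IL-4+LPS. Ifnar2 was 121.2, 105.5 and 103.1 FPKM in control, 83.3, 76.8 and 77.8 with IL-4, 142.9, 158.4 and 156.7 with LPS, and 104.6, 124.1 and 123.2 in IL-4+LPS. The LPS libraries were above the control libraries for both chains without overlap. In log2(FPKM + 1), LPS minus control was 0.82 (SE 0.096, adjusted p = 2.14e-05) for Ifnar1 and 0.47 (SE 0.088, adjusted p = 0.000585) for Ifnar2, the smallest difference of the 42. Exons of Ifnar2 overlap the annotated gene Gm21970 over 9.46% of their bases.

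The largest LPS response of the 42 on the log2(FPKM + 1) scale was that of Rsad2, an antiviral effector that was scarce in control. With a pseudocount of 0.1 Oasl1 was ahead of it, at 7.53 against 7.35. Rsad2 encodes viperin, a radical SAM enzyme that makes an inhibitor of viral polymerases, and Cmpk2, its neighbour in the genome, encodes a nucleotide kinase. Rsad2 was 9.33, 5.35 and 3.3 FPKM in control and 983.6, 843.8 and 915.8 in LPS, a difference of 7.12 in log2(FPKM + 1) (SE 0.31, adjusted p = 2.09e-08). Cmpk2 went from a mean of 5.3 ± 1.77 to 446.9 ± 26.1 FPKM (SD, n = 3), a difference of 6.19. Of the other effectors, Rtp4 rose from 27.6 ± 11.1 to 189.3 ± 6.17 FPKM and Isg20, a 3′ to 5′ exonuclease, from 2.58 ± 0.339 to 29.2 ± 2.72 FPKM. Samd9l, Ifi44 and Ifi35 rose by 2.34, 2.2 and 2.31 on the same log2 scale. Bst2 (tetherin), which holds budding virions at the cell surface, was the most abundant member in control at 178.5 ± 18.4 FPKM and rose to 260.9 ± 11.5 FPKM, a difference of 0.55. The Bst2 window printed above holds 2 ISRE cores and that of Rsad2 holds 1.

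IFIT proteins bind viral RNA through its 5′ end, and all 3 measured genes rose strongly. Ifit1 was 6.42, 3.89 and 2.68 FPKM in control and 668, 591.5 and 655.9 in LPS, a difference of 6.97 (SE 0.27). Ifit2 rose by 5.56 and Ifit3 by 4.43 on the log2(FPKM + 1) scale. In both, LPS replicate 1 stood above the others, at 483.1 against 251.4 and 297.2 FPKM for Ifit2 and at 350.1 against 162.6 and 171.5 FPKM for Ifit3.

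The OAS family includes enzymes that sense double-stranded RNA and lead to activation of RNase L. The Mx genes belong to a family of dynamin-like GTPases, and Mx2 is annotated as a polymorphic pseudogene. Oasl1 rose from 1.32 ± 0.537 to 249.4 ± 17.6 FPKM, a difference of 6.78, whereas Oas1a, Oas2, Oas3 and Oasl2 rose by 1.76 to 2.76 from control means of 9.33 to 24.5 FPKM. Mx1 went from 3.11 ± 1.45 to 364.8 ± 24.3 FPKM and Mx2 from 0.863 ± 0.422 to 104.6 ± 3.2 FPKM, differences of 6.53 and 5.85. The OAS family thus held a member with a near-absent control level and 4 with an appreciable level before LPS.

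Sensors of nucleic acid rose by 1.51 to 4.21 on the log2(FPKM + 1) scale. Ifih1 (MDA5), a sensor of long double-stranded RNA, rose most, from 6.16 ± 1.69 to 129.0 ± 8.57 FPKM. Zbp1, a sensor of Z-form nucleic acid, rose by 3.39, Ddx58 (RIG-I) by 2.36, the kinase gene Eif2ak2 (PKR) by 2.32 and Dhx58 (LGP2) by 1.61. Adar, which encodes an RNA-editing enzyme, rose least of the 6, from 14.2 ± 1.34 to 42.2 ± 3.81 FPKM. Exons of another gene, Chrnb2, cover 16.8% of the exon bases of Adar.

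Isg15 encodes a ubiquitin-like protein that is attached to target proteins, Herc6 a ligase that attaches it, and Usp18 the protease that removes it and also restrains signalling from the receptor. Isg15 went from 14.9 ± 3.98 to 873.6 ± 105.5 FPKM, a difference of 5.81, Usp18 from 2.61 ± 1.08 to 127.3 ± 28.2 FPKM, a difference of 5.17, and Herc6 from 3.81 ± 1.07 to 34.9 ± 2.16 FPKM, a difference of 2.92. Parp9 and Dtx3l, which encode partners in an ADP-ribosylation and ubiquitin ligase complex, rose by 2.62 and 2.81, and Parp14 by 3.56 to 337.4 ± 9.93 FPKM.

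Among the remaining genes, the DNA-sensing family member Ifi204 rose by 2.97, Phf11d by 2.83, Xaf1, an apoptosis factor, by 2.65, the endoplasmic reticulum gene Tor3a by 1.94 and Sp100, a component of nuclear bodies, by 1.04. Schlafen genes regulate growth and RNA handling in immune cells. Slfn2 was the most abundant member in LPS, at 1314, 1363 and 1362 FPKM against 180.6, 174.3 and 165.1 FPKM in control, a difference of 2.95. Slfn1, Slfn4 and Slfn5 rose by 3.9, 2.69 and 3.25.

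The order of levels differed between the unstimulated and the stimulated groups. Bst2, Slfn2 and Ifnar2 were the 3 most abundant members in both control and IL-4. In LPS, Slfn2 led, followed by Rsad2 and Isg15, whose ranges overlapped, and then Ifit1 and Cmpk2. Ifnb1 was the least abundant member in control, IL-4 and LPS, and Ifi44 in IL-4+LPS, where the ranges of both overlapped. Of the 41 pairs of neighbours in that order, the ranges of 3 libraries overlapped in 38 for control, 37 for IL-4, 27 for LPS and 34 for IL-4+LPS. Most neighbours are therefore not separated beyond their spread. The median of the members' means was 11.3 FPKM for control, 4.72 with IL-4 alone, 99.8 with LPS alone and 86.4 with both.

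IL-4 alone lowered most members. In IL-4 minus control, 26 of 42 were called lower and 2 higher, where 21% of all rows were called lower and 16% higher. The median difference was -0.55 on the log2(FPKM + 1) scale, against -0.05 for all rows. This fit takes no account of replicate number. With a term for it (a replicate block), 32 members were called lower and 2 higher, against 28.4% and 21.5% of all rows. The mean FPKM in IL-4 was a median of 53.3% of that in control, and under 50% for 18 members. All 3 control libraries lay above all 3 IL-4 libraries in 24 members, as they did in 29.5% of all rows. All 3 IFIT genes, all 5 OAS genes and both Mx genes were called lower, as were 3 of 6 sensors, 4 of 8 other effectors and 3 of 4 Schlafen genes. The sum of the macrophage markers was also lower with IL-4 (7580 to 7800 FPKM against 19400 to 20800 in control). Most of that sum was Lyz2, at 15300 to 16500 FPKM in control and 4730 to 5050 with IL-4, and the other 7 markers summed to 4030 to 4250 and 2670 to 2960 FPKM. The neutrophil and precursor markers were at 214 to 401 FPKM with IL-4 against 316 to 847 in control, overlapping. The part of these markers in the result was not tested.

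**Figure D2:**
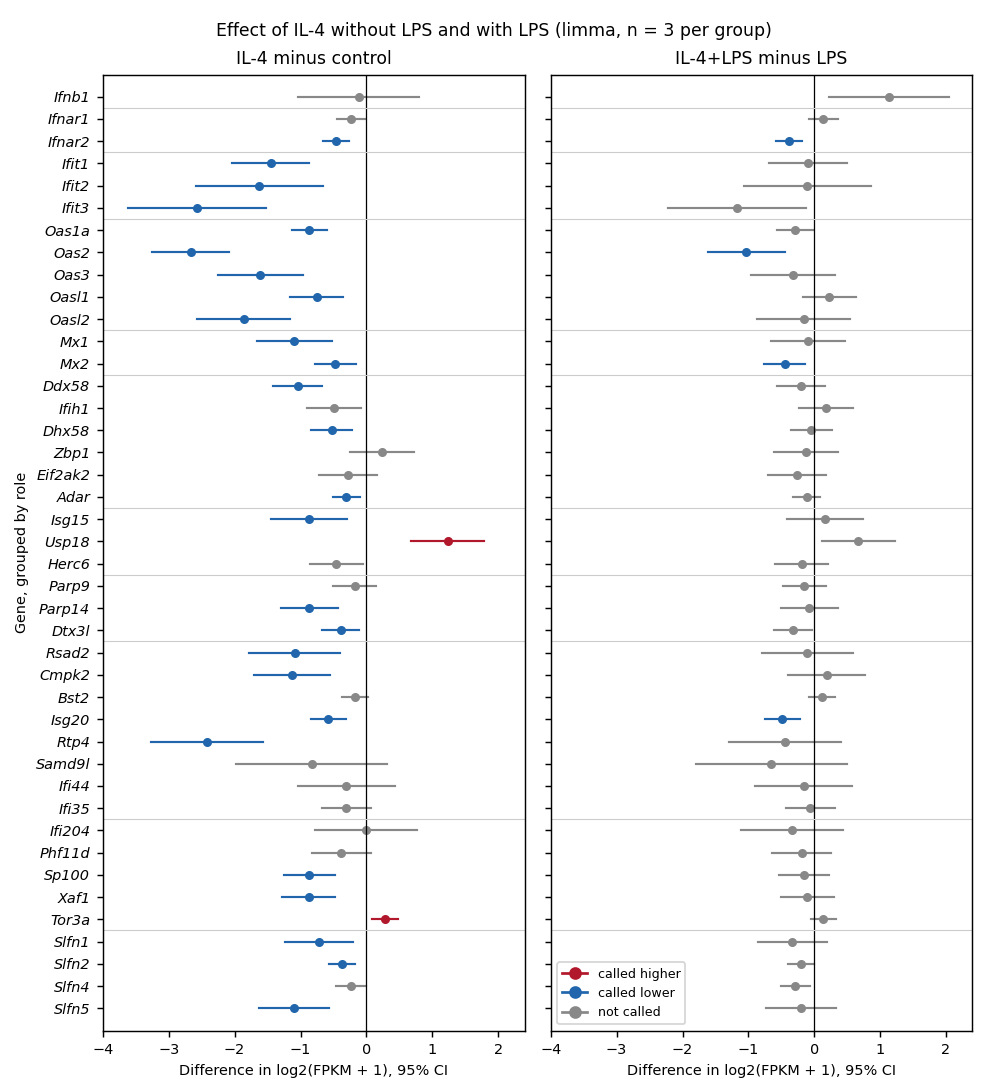
Difference in log2(FPKM + 1) with its 95% confidence interval for each of the 42 genes, for IL-4 minus control (left) and IL-4+LPS minus LPS (right), n = 3 per group, coloured by call. On the left 26 genes are called lower and 2 higher, and on the right 4 are called lower and 38 are not called.

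Oas2 had the largest fall on the log2(FPKM + 1) scale. It was 17.1, 11.0 and 9.05 FPKM in control and 1.99, 0.818 and 0.561 in IL-4, a difference of -2.67 (SE 0.26, adjusted p = 2.99e-05), and no IL-4 library came near the control range. Ifit3 fell from 16.6, 8.19 and 5.17 FPKM to 1.35, 0.495 and 0.346, a difference of -2.57 (SE 0.47, adjusted p = 0.00181). With a pseudocount of 0.1 the order of these turned, at -3.63 for Ifit3 and -3.47 for Oas2. Rtp4, a chaperone of receptor transport, fell from 39.1, 26.9 and 16.9 FPKM to 9.29, 2.36 and 2.82, a difference of -2.42 (SE 0.38, adjusted p = 0.000765). In each of the 3 genes replicate 1 was the highest of its group in both control and IL-4. Oasl2 fell by 1.86, Ifit2 by 1.62, Oas3 by 1.61 and Ifit1 by 1.46 on the same scale. A mean under 1 FPKM was found for 8 members in IL-4 (Ifnb1, Ifit1, Ifit3, Oasl1, Mx1, Mx2, Ifi44 and Slfn1), against 3 in control (Ifnb1, Mx2 and Ifi44).

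The called falls that were smaller on the log2(FPKM + 1) scale covered further roles. This scale understates the change of genes under a few FPKM. In mean FPKM, IL-4 left Slfn1 at 23%, Oasl1 at 27.3%, Mx1 at 29% and Mx2 at 37.3% of control. Oas3, named above, was at 27.1%, and Isg15 and Oas1a were at 52.9%. Cmpk2, Rsad2, Slfn5, Mx1 and Ddx58 fell by 1.13, 1.09, 1.09, 1.09 and 1.05. Xaf1, Isg15, Oas1a, Parp14, Sp100, Oasl1 and Slfn1 fell by 0.88 to 0.72, and Isg20, Dhx58, Mx2, Ifnar2, Dtx3l, Slfn2 and Adar by 0.58 to 0.31. The ranges of control and IL-4 overlapped for Rsad2, Isg15, Slfn1 and Dtx3l. Of the 12 fits that left out a library, Isg15, Slfn1 and Dtx3l were called in 8 and Rsad2 and Adar in 9. Mx2 was called in 10, Dhx58 in 11 and the others of this paragraph's called falls in all 12. Ifit2, named above, was called in 9. Ifnar2 was lower in every IL-4 library than in any control library (-0.46, adjusted p = 0.00224). For Ifnar1 the difference was -0.24 (adjusted p = 0.0807) and was not called, although its ranges did not overlap either.

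Usp18 and Tor3a moved the other way. Usp18, the negative regulator of the receptor, was 3.71, 2.54 and 1.56 FPKM in control and 8.76, 6.8 and 6.31 in IL-4, a difference of 1.23 (SE 0.25, adjusted p = 0.00332) that was called in all 12 fits that left out a library. Every IL-4 library was above every control library. Tor3a was 33.5, 30.5 and 28.7 FPKM in control and 37.7, 38.1 and 37.6 in IL-4, a difference of 0.29 (adjusted p = 0.026), which was no longer called without any of the IL-4 libraries or without control replicate 2 or 3 (adjusted p up to 0.0973).

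The 14 members that were not called in IL-4 minus control were Ifnb1, Ifnar1, Ifih1, Zbp1, Eif2ak2, Herc6, Parp9, Bst2, Samd9l, Ifi44, Ifi35, Ifi204, Phf11d and Slfn4. Their differences ran from -0.83 for Samd9l to 0.24 for Zbp1, and 13 of the 14 were below 0. The 95% confidence interval lay within 1 log2 unit of 0 for 11 of them, and its half-width reached 1.15 for Samd9l.

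The replicates numbered 1 stood apart in the unstimulated groups. Replicate 1 was the highest of its group for 39 of 42 members in control and 40 of 42 in IL-4, against 36% and 38% of all rows. It was highest for 20 members in LPS and 19 in IL-4+LPS, against 45.4% and 50.2% of all rows. The median ratio of replicate 1 to the mean of replicates 2 and 3 was 1.61 in control, 1.76 in IL-4 and 1.02 in both groups with LPS. The same 4 libraries had the lowest relative depth and the lowest neutrophil marker sums of their groups, and the part of these in the result was not tested. With replicates 2 and 3 only, 35 members were called lower in IL-4 and 2 higher, and 26 of the 35 were those called with all libraries. Of all rows in that fit 29.4% were called lower and 21.7% higher.

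**Figure D3:**
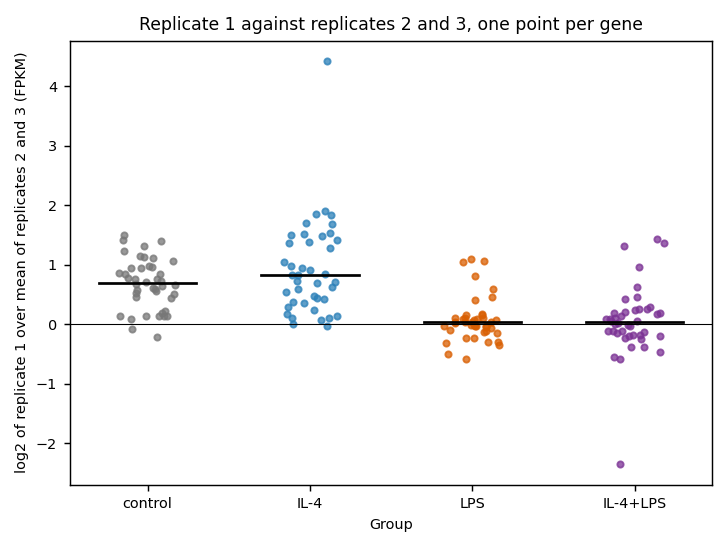
Log2 ratio of the FPKM of replicate 1 to the mean of replicates 2 and 3, 1 point per gene with a ratio above 0, in each group, with the median as a line. The median ratio is 1.61 in control and 1.76 in IL-4 on the linear scale, and 1.02 in both groups with LPS.

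After IL-4 pretreatment the level under LPS was close to that with LPS alone for most members. In IL-4+LPS minus LPS, 4 of 42 were called lower and 0 higher, where 15.8% of all rows were called lower and 15% higher. Of the 42 differences 33 were below 0, with a median of -0.16 against -0.03 for all rows. With the replicate block 7 were called lower and 0 higher, against 23.8% and 20.4% of all rows. The mean FPKM in IL-4+LPS was a median of 89.6% of that in LPS and lay within 25% of it for 34 members. Of the 38 members that were not called, the 95% confidence interval lay within 1 log2 unit of 0 for 31 and within 0.5 for 8. The 7 with wider intervals were Ifnb1, Ifit2, Ifit3, Usp18, Rtp4, Samd9l and Ifi204.

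The 4 called lower had different roles. Oas2 was 45.4, 45.2 and 39.0 FPKM in LPS and 23.3, 22.7 and 16.4 in IL-4+LPS, a difference of -1.03 (SE 0.26, adjusted p = 0.0128) without overlap. Isg20 was 26.2, 30.0 and 31.5 FPKM in LPS and 20.3, 21.8 and 19.6 in IL-4+LPS, a difference of -0.48 (SE 0.12, adjusted p = 0.0106). Both were lower in every library after IL-4, and the Oas2 call was lost without IL-4+LPS replicate 3 (-0.88, adjusted p = 0.0533). Mx2 was 107.9, 104.3 and 101.5 FPKM in LPS and 79.3, 81.8 and 68.3 in IL-4+LPS, a difference of -0.45 (SE 0.14, adjusted p = 0.0319). Its ranges did not overlap, but it was called in 8 of the 12 fits that left out a library. It was not called without LPS replicate 1, 2 or 3 (adjusted p = 0.0819, 0.0735 and 0.0651) or without IL-4+LPS replicate 3 (-0.37, adjusted p = 0.116). Without IL-4+LPS replicate 3, 2 of the 4 stayed called. Mx2 was also not called with a pseudocount of 0.1 (adjusted p = 0.211) or by the Tukey test per gene, and both of these alternatives called the other 3. Ifnar2, whose values stand above, was lower by 0.38 (SE 0.088, adjusted p = 0.00786) and was called in all 12 such fits. For Ifnar1 the difference was 0.14 (adjusted p = 0.313, 95% confidence interval -0.07 to 0.35).

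A further set came close to the threshold. Ifit3 was 350.1, 162.6 and 171.5 FPKM in LPS and 172.4, 71.1 and 68.3 in IL-4+LPS, so that the highest IL-4+LPS library lay in the LPS range (-1.17, adjusted p = 0.0854). Replicate 1 was the highest library of both groups, and the difference was called without IL-4+LPS replicate 1 (-1.60, adjusted p = 0.0231). The difference was also called with a replicate block in the fit (adjusted p = 0.00027). Usp18 was 95.04, 139.1 and 147.7 FPKM in LPS and 152.3, 223.7 and 232.4 in IL-4+LPS, with every IL-4+LPS library above every LPS library, a difference of 0.67 (SE 0.25, adjusted p = 0.0675) that was called without IL-4+LPS replicate 1 (0.86, adjusted p = 0.0286) and without control replicate 1 or 3 (adjusted p = 0.0455 and 0.0469). Slfn4, Dtx3l and Oas1a had differences of -0.29, -0.32 and -0.3 with adjusted p of 0.0539, 0.0838 and 0.0925. In 15 members all LPS libraries were above all IL-4+LPS libraries, as in 21.8% of all rows, and the reverse held for Usp18, Cmpk2 and Tor3a, as in 20.4%. With replicates 2 and 3 only, 16 members were called lower and 3 higher (Ifnb1, Oasl1 and Usp18), and the 4 called with all libraries were among the 16. Of all rows in that fit 26.1% were called lower and 21.3% higher.

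The libraries of IL-4+LPS did not agree on the level of Ifnb1. Its difference from LPS was 1.13 (SE 0.41, adjusted p = 0.0616), carried by replicates 2 and 3 of IL-4+LPS at 10.7 and 10.6 FPKM against 2.07 in replicate 1. Without IL-4+LPS replicate 1 it was 1.77 (SE 0.13, adjusted p = 1.07e-05), without replicate 2 or 3 of that group it was 0.81 (adjusted p = 0.211 and 0.21), and with replicates 2 and 3 of all groups only it was 1.91 (adjusted p = 6.14e-06). Among the most abundant induced members, Rsad2, Isg15 and Ifit1 had overlapping ranges in LPS and IL-4+LPS. Rsad2 was 983.6, 843.8 and 915.8 FPKM in LPS and 1042, 759.6 and 768 in IL-4+LPS (-0.11, 95% confidence interval -0.8 to 0.59), and Isg15 was 755.4, 958.4 and 907 in LPS and 783.5, 1141 and 1032 in IL-4+LPS (0.16, 95% confidence interval -0.42 to 0.74). Ifit1 differed by -0.1 (95% confidence interval -0.69 to 0.49). Slfn2 was 1314, 1363 and 1362 FPKM in LPS and 1069, 1232 and 1230 in IL-4+LPS. Its difference of -0.2 was not called (adjusted p = 0.123), although the ranges did not overlap. Cmpk2 was higher by 0.19 in IL-4+LPS, also without overlap and not called (adjusted p = 0.638).

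**Figure D4:**
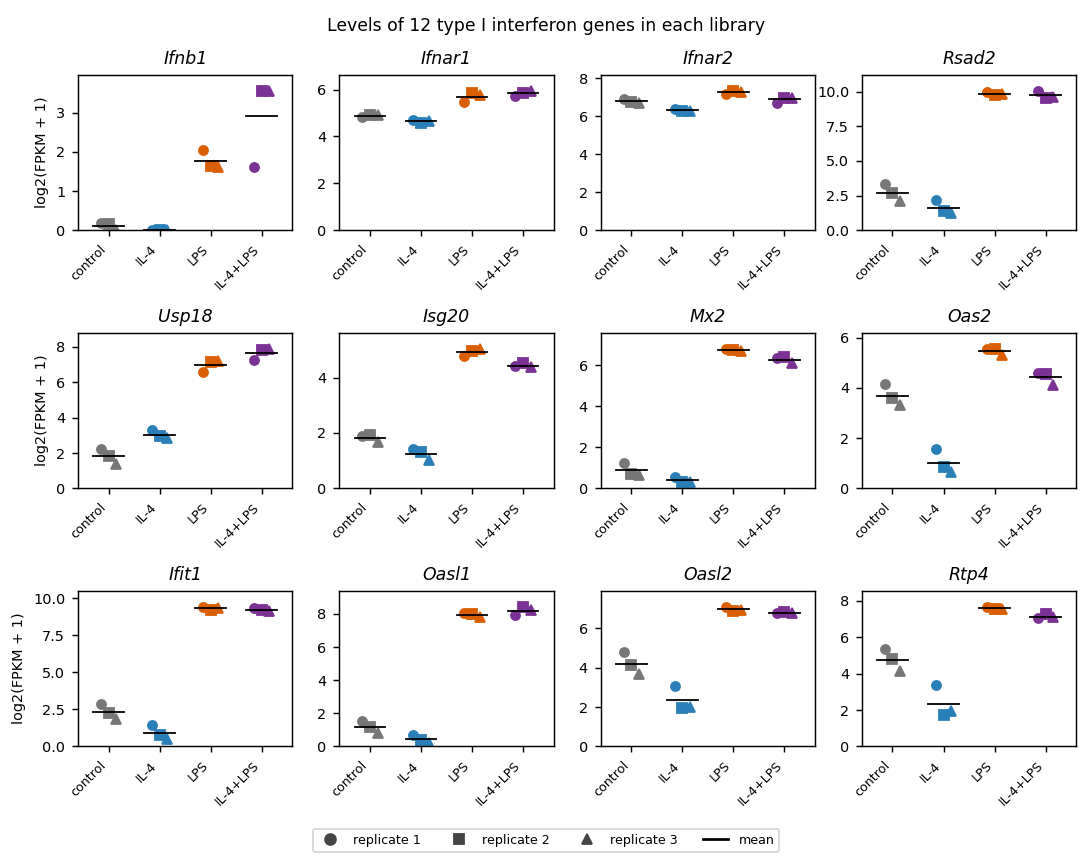
Log2(FPKM + 1) of 12 genes in each library by group, with a symbol per replicate number and the group mean as a line. Oas2, Mx2, Isg20 and Ifnar2 are lower in every IL-4+LPS library than in any LPS library, and Ifnb1 replicate 1 of IL-4+LPS lies apart from replicates 2 and 3.

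LPS also raised every member after IL-4. In IL-4+LPS minus IL-4, 42 of 42 were called higher and 0 lower, where 15% of all rows were called higher and 57.9% lower (1682 and 6474 rows, against 2629 and 4057 after median scaling). The median difference was 3.17, and it ran from 0.56 for Ifnar2 to 8.32 for Ifit1 on the log2(FPKM + 1) scale. Rsad2 (8.11), Oasl1 (7.76), Mx1 (7.53) and Cmpk2 (7.5) followed Ifit1, each starting from an IL-4 mean of 0.359 to 2.22 FPKM. Ifnb1 was listed at 0 in all IL-4 libraries, so no fold is given for it. Ifnb1 and Ifi44 passed the filter only through libraries with LPS, so their place in this count was built into passing.

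Whether the response to LPS differed after IL-4 was tested by the interaction, (IL-4+LPS minus IL-4) minus (LPS minus control). It was called higher for 5 members and lower for 0, where 4.58% of all rows were called higher and 4.63% lower. Of the 42 values, 37 were above 0, with a median of 0.44 against 0.04 for all rows. The 5 were Rtp4 at 1.97 (SE 0.54, adjusted p = 0.0485), Oasl2 at 1.7 (SE 0.45, adjusted p = 0.0407), Oas2 at 1.64 (SE 0.37, adjusted p = 0.0209), Ifit1 at 1.36 (SE 0.38, adjusted p = 0.0491) and Oasl1 at 0.98 (SE 0.25, adjusted p = 0.0379). All 5 were also called lower in IL-4 minus control, a contrast that shares the control and IL-4 libraries with the interaction.

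These 5 genes had a lower start with IL-4, and in IL-4+LPS minus LPS Oas2 was called lower and the other 4 were not called. Ifit1 was 1.75, 0.692 and 0.392 FPKM in IL-4 and 635.2, 592.7 and 559.2 in IL-4+LPS, the latter range overlapping that of LPS. Oasl2 was 27.4, 16.7 and 11.7 FPKM in control, 7.53, 2.84 and 3.03 with IL-4, 133.2, 118 and 121.8 with LPS and 110.6, 114.1 and 108.5 in IL-4+LPS, lower with IL-4 in every library at both stages. Oasl1 was 1.86, 1.3 and 0.788 FPKM in control, 0.61, 0.292 and 0.174 with IL-4, 260, 259.1 and 229.1 with LPS and 244.3, 335.7 and 302.1 in IL-4+LPS, where the last ranges overlapped. Rtp4 reached 196.2, 184.2 and 187.7 FPKM in LPS and 130.5, 150.4 and 135.4 in IL-4+LPS, a difference of -0.45 (adjusted p = 0.424) although the ranges did not overlap. In linear terms the mean gain over the unstimulated group was 162 FPKM without and 134 FPKM after IL-4 for Rtp4, 30.8 and 19.7 for Oas2, 634 and 595 for Ifit1, 106 and 107 for Oasl2, and 248 and 294 for Oasl1. The mean linear gain was thus smaller after IL-4 for Rtp4, Oas2 and Ifit1, whose log2 response was larger.

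The interaction calls changed with the libraries in the fit. Of 12 fits that each left out a library, Oas2 was called in 8, Oasl1 in 4 and Ifit1, Oasl2 and Rtp4 in 2 each. The count over members ran from 0, without IL-4 replicate 2 or 3, LPS replicate 3 or IL-4+LPS replicate 2, to 15, without IL-4 replicate 1. It was 1 without control replicate 1 or 2, LPS replicate 2 or IL-4+LPS replicate 3, 2 without LPS replicate 1, 4 without IL-4+LPS replicate 1 and 8 without control replicate 3. Over these 12 fits 2.74% to 5.56% of all rows were called higher. With the replicate block 18 members were called higher, against 10.2% of all rows. With replicates 2 and 3 only, 23 members were called higher, the 5 among them, and 1 lower (Tor3a), where 13.2% of all rows in that fit were called higher and 12.6% lower.

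**Figure D5:**
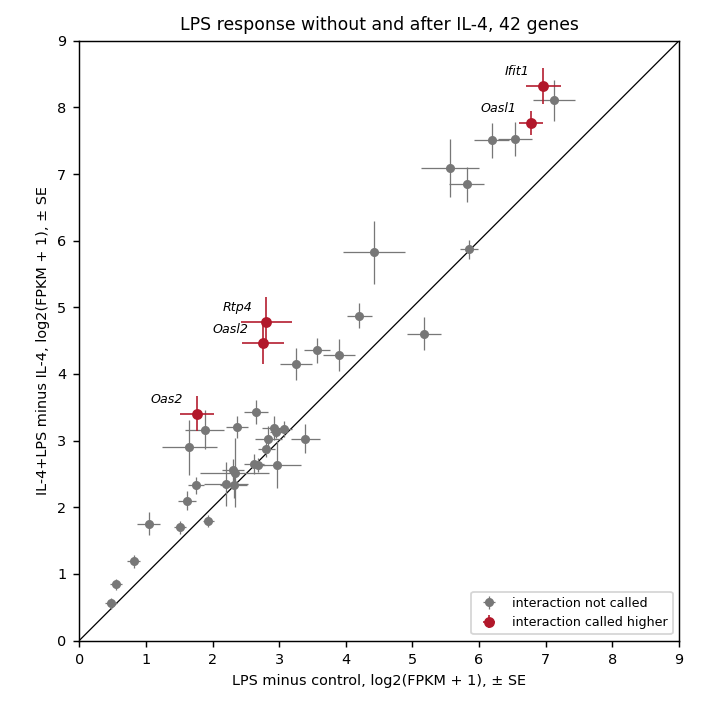
LPS response without IL-4 (horizontal) and after IL-4 (vertical) of the 42 genes, as differences in log2(FPKM + 1) with standard errors, and the line of equal response. The 2 axes share no library, 37 genes lie above the line, and the 5 genes with a called interaction are named.

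The other genes of the pathway were taken from lists of 103 genes, of which 97 were in the tables and 78 passed the filter. These lists too were written with earlier results of these data known. In LPS minus control 63 of the 78 were called higher and 7 lower, against 16.9% and 57.7% of all rows. In IL-4 minus control 8 were called higher and 34 lower, against 16% and 21%. In IL-4+LPS minus LPS the counts were 6 and 16, against 15% and 15.8%, and in the interaction 5 and 4, against 4.58% and 4.63%. The last counts are near those of all rows. Between the receptor and the nucleus, Stat2 rose with LPS by 2.64, Jak1 by 0.83, Irf9 by 0.72 and Tyk2 by 0.24. Irf9, the DNA-binding partner of STAT2, was 27.4, 25.6 and 22 FPKM in control, 14.7, 10.1 and 11.2 with IL-4, 40.2, 44.7 and 40.2 with LPS and 31.9, 36.4 and 35.4 in IL-4+LPS. It fell by 1.01 with IL-4 (adjusted p = 0.000173) and had a called interaction of 0.74 (adjusted p = 0.0282). Among the 5 genes listed between receptor and nucleus, the interaction was called higher for 1 and lower for 1. The 5 values ran from -0.54 to 0.76. Stat2 differed by -0.22 with IL-4 alone and by 0.29 under LPS (adjusted p = 0.246 and 0.138).

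Irf7, the factor that amplifies interferon production and is itself interferon-inducible, was low with IL-4 alone. It was 45.4, 22.6 and 14.2 FPKM in control, 7.08, 2.47 and 2.08 with IL-4, 166.9, 177.4 and 175.2 with LPS and 110.3, 124.5 and 118.2 in IL-4+LPS. Every IL-4+LPS library was below every LPS library, yet the difference of -0.56 was not called (adjusted p = 0.336), while IL-4 minus control was -2.53 (adjusted p = 0.000762). Irf3, which acts upstream of Ifnb1, fell with LPS by 0.42, where the median difference of all rows was -0.44. Its difference in IL-4+LPS minus LPS was -0.36 (adjusted p = 0.0263).

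Among 9 genes that lead from LPS to interferon beta, 6 were called lower, 0 higher and 3 not called in IL-4+LPS minus LPS. Of all rows 15.8% were called lower and 15% higher. The 6 were the coreceptors Cd14 (-2.28) and Ly96 (-0.6), the adaptors Ticam2 (-0.73) and Ticam1 (-0.28), the kinase Ikbke (-1.12) and Irf3. This list was written with earlier results of these data known, and the paper had reported a weaker LPS response of Cd14 after IL-4. The count is therefore no independent test. Ikbke was 121.5, 103.1 and 98.3 FPKM in LPS and 56.4, 47.0 and 43.6 in IL-4+LPS, without overlap. Of the 78 genes, the largest falls in this comparison after Cd14 were those of the phosphatase Ptpn1 (-1.41, adjusted p = 0.000213) and of Cxcl10, a chemokine that interferon induces (-1.18, adjusted p = 0.0271). The largest rises were those of Irf8 (2.43), Socs1 (0.97) and Irf1 (0.8). Irf8, a factor of the macrophage lineage, was 33.4, 31.3 and 31.2 FPKM in LPS and 132.5, 205.2 and 200.4 in IL-4+LPS. Irf1 was 541.3, 455.6 and 425.2 FPKM in LPS and 890.2, 798.8 and 776 in IL-4+LPS. Socs1, an inhibitor of JAK kinases, was 0.769 or less in 2 control libraries and 1.23 FPKM in the third, 30.6 to 33.3 FPKM with IL-4, 35.7 to 71.2 FPKM with LPS, and 74.6 to 143.7 FPKM in IL-4+LPS. Like Usp18 it is a negative regulator of the receptor pathway that was higher with IL-4 alone (4.17, adjusted p = 2.55e-06). Of the 8 listed negative regulators past the filter, 2 were called higher and 3 lower with IL-4 alone, against 16% and 21% of rows. Usp18 is not among these 8.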

How the data were processed

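The authors isolated total RNA, prepared poly-A libraries, mapped the reads and computed expression. The submitters' processing notes name TopHat2 2.0.7, Cufflinks 2.0.2 and build mm10. The deposited values are FPKM, 1 table per library with replicates kept apart, and fragment counts were not analysed here. FPKM is scaled to the mapped fragments of each library, so a change in RNA composition shifts the other genes. Tables were joined on symbol, locus and start site, and 1 was added to the loci's starts.

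Values were taken as log2(FPKM + 1) for rows with at least 1 FPKM in at least 1 library. Group means over all 12 libraries were fitted with limma 3.58.1 in R 4.3.3 (eBayes with an intensity trend), and p-values were adjusted by Benjamini-Hochberg within each contrast over 11191 rows, with a threshold of 0.05. The fit was tested on simulated data. The members and lists were chosen with earlier results of these data known. Genes were named by a rule: every member by role, with values per library for the largest and smallest LPS response, the ligand and receptors, and the members called in IL-4+LPS minus LPS or the interaction. Others given per library were chosen after their values were seen. From the pathway lists Stat2, Irf9, Irf3, Irf7 and the 3 largest changes in each direction in IL-4+LPS minus LPS were named, and others there were also chosen after their values were seen. Some items that the rule covers are not reported here. The alternatives were another pseudocount, other filters, 2 scalings, no trend, the compared groups only, a replicate block, a Tukey test per gene and each library left out. Replicates 2 and 3 only was chosen after seeing the data. Figures used matplotlib 3.10.9.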

Additional observations from a re-analysis of the deposited data

Results flagged for a closer look

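The response to LPS differed after IL-4, by the test of the interaction across all rows in limma, for 5 of the 42 members (log2(FPKM + 1), n = 3 per group). All 5 were called higher, where 4.58% of all rows were called higher and 4.63% lower. The interaction was 1.36 for Ifit1 (adjusted p = 0.0491), 1.64 for Oas2 (adjusted p = 0.0209), 0.98 for Oasl1 (adjusted p = 0.0379), 1.7 for Oasl2 (adjusted p = 0.0407) and 1.97 for Rtp4 (adjusted p = 0.0485). Ifit1, Oasl1 and Oasl2 belong to families whose other measured members also had values above 0, with 1.52 for Ifit2, 1.4 for Ifit3, 1.28 for Oas3 and 0.57 for Oas1a, none of them called. In 4 of the 5 genes the adjusted p was over 0.03, and none was called in all fits that left out a library. Replicate 1 was the highest library of control and of IL-4 in each of the 5, and the part of this in the result was not tested.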

How the results depend on the processing

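The LPS contrasts called 42 of 42 members higher under every alternative and with every library left out, and no value of a member reversed past the threshold. In the fits over all rows, 12.4% to 26.5% of rows were called higher in LPS minus control. In IL-4+LPS minus IL-4 that share was 11.2% to 23.5%. Of the 42, Ifnb1 and Ifi44 reached 1 FPKM only in libraries with LPS. For IL-4 minus control, leaving out 1 library gave 18 to 30 members lower and 1 to 2 higher. For IL-4+LPS minus LPS (4 lower, 0 higher) leaving out 1 library gave 2 to 5 lower and 0 to 2 higher. Of all rows 11.9% to 18.4% were lower and 11.8% to 15.8% higher. The compared groups only gave 8 lower (11.5% of all rows), and replicates 2 and 3 only gave 16 lower and 3 higher (26.1% and 21.3%). For the interaction (5 higher, 0 lower) leaving out 1 library gave 0 to 15 higher, where 2.74% to 5.56% of all rows were higher. The interaction count was 3 with a pseudocount of 0.1 (3.11% of all rows called higher) and 1 with no filter on low values (3.65%). It was 7 with at least 1 FPKM required in at least 3 libraries (4.84%) and 4 with no intensity trend (4.66%). It was 3 after median scaling (4.32%), 3 after quantile normalization (5%), and 23 higher and 1 lower with replicates 2 and 3 only (13.2% and 12.6%). The Tukey test per gene, which is unadjusted over genes and was run on the members only, gave 18, with no share of all rows. The cause of these shifts was not tested. Same-numbered libraries shared deviations weakly (mean r 0.12 over 18 pairs, 11 of them over 0.1, lowest 0.0024), and 9 of 12 libraries correlated best with their own number, a hint from the data. Within each group replicates 2 and 3 correlated best (r 0.965 to 0.976), against 0.944 to 0.953 for pairs with replicate 1. The labels do not tie a number to an animal, so the fit without the block was kept. If the numbers do mark animals or experiments, that fit ignores a pairing. Whether they do was not tested. With the replicate block, 7 members were called lower in IL-4+LPS minus LPS (23.8% of all rows), 18 had a higher interaction (10.2%), and 32 were lower with IL-4 (28.4%). Ifit3 was among the 7 (-1.17, adjusted p = 0.00027 against 0.0854 without the block). Depth limits the control and IL-4 levels under 1 FPKM, which rest on few fragments.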
